A study of Mus musculus with 9 samples.

Results

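Il33 and the receptor chains that bind or share its signal were examined in mouse urogenital sinus mesenchymal cells exposed to estradiol (E2). The set was given as 4 genes of 19938 named genes on the array: Il33, Il1rl1, Il1rap and Il1r1. It was chosen from the 100 pM E2 arrays of these same data, because Il33 was much lower there than in vehicle. The differences of these genes that involve 100 pM E2 are therefore given as a description with no test. Of the 4 genes, 2 had a probeset, the group of probes that reads 1 gene on the array, named in the platform annotation used here: Il33 and Il1rap, with 1 probeset each. Il1rl1 and Il1r1 had none under their symbol, gene identifier or transcript accession and were not analysed here.

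The cells were primary cultures at first passage from the urogenital sinus of male CD-1 fetuses on gestation day 17, the tissue that gives rise to the prostate. They were kept for 3 days in medium with hormone-depleted serum and 690 pM dihydrotestosterone (DHT), an androgen. They were then exposed for 4 days to vehicle (0.05% ethanol, as the sample source gives it), 10 pM E2 or 100 pM E2, with DHT at 690 pM in every group, so no group shows the cells without androgen. Total RNA was read on Affymetrix Mouse Gene 1.0 ST arrays, with 3 arrays per group and 9 in all. The labels do not say whether the replicates were separate cultures, so a p-value here speaks only of the scatter between arrays, which could be technical, and the number of arrays limits the precision.

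IL-33 is a cytokine of the IL-1 family that stromal, endothelial and epithelial barrier cells hold in the nucleus and release when they are damaged, and it is therefore called an alarmin. It binds ST2, the protein of Il1rl1, which then pairs with the accessory chain encoded by Il1rap. The same accessory chain pairs with the IL-1 receptor encoded by Il1r1, and both complexes signal through the adaptor MyD88, IRAK kinases and TRAF6 to NF-kB and MAP kinases. ST2 is best known on mast cells and on lymphoid cells that make type 2 cytokines, while fibroblasts are classical responders to IL-1.

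Il33 lies on mouse chromosome 19, Il1rap on chromosome 16, and Il1rl1 and Il1r1 on chromosome 1. RefSeq (GRCm38.p6) gives Il33 2 transcription start windows on the plus strand, each from 250 bases before to 50 bases after a start. They are shown because Il33 carries the largest difference in the set, and because its single probeset does not tell transcripts from the separate starts apart. Capitals mark TATAAA, the core letters of a TATA box.
Il33 upstream start, chr19:29924863-29925162: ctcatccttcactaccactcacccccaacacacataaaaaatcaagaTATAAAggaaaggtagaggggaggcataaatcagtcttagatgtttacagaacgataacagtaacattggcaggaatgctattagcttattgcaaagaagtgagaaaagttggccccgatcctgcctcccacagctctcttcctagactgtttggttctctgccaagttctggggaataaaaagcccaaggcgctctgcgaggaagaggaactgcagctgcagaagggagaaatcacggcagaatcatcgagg
Il33 downstream start, chr19:29945540-29945839: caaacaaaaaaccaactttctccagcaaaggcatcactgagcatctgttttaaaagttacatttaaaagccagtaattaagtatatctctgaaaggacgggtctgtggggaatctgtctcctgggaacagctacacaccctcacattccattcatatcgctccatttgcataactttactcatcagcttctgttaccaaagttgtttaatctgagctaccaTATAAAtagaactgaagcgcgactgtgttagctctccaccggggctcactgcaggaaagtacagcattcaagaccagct
Each window was searched on both strands for the full estrogen response element (GGTCA, then NNN, then TGACC, with N any base), its half-site GGTCA, the AP-1 site TGANTCA and TATAAA. Neither Il33 window held the estrogen response element, the half-site or the AP-1 letters. TATAAA was found once in each, beginning at position -29 from the downstream start and at position -203 from the upstream start, with the start itself counted as position 1. Among all 32851 mouse windows of this length, 0.07% held the full element, 40.5% the half-site, 7.81% the AP-1 letters and 13.6% TATAAA. The Il1rap window, chr16:26581455-26581754 on the plus strand, held none of the 4 motifs and was 72% G and C, against 46.3% and 42.3% in the upstream and downstream Il33 windows. A match is a description of letters, and no match says only that the letters are not in that window.

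The arrays were alike in overall signal in the deposited values. Over all 35556 probesets, their medians lay within 0.03 of each other on the log2 scale. How these values were normalized is not given, so the medians do not show how alike the arrays were before that step. Pairs of arrays correlated at 0.9925 to 0.9941 within a group and at 0.9918 to 0.9943 between groups. Pgr, the progesterone receptor gene and a classical estrogen target, rose at 100 pM E2 by 1.04 ± 0.11 (log2, SE) over vehicle (limma, adjusted p = 0.00359). The mesenchymal markers Vim and Col1a1 were among the bright genes, at 12.89 to 13.12 and 13.53 to 13.62 log2 over the 9 arrays, while the epithelial markers Epcam and Cdh1 were at 4.99 to 5.36 and 5.27 to 5.41. Of the 10 epithelial markers read, 4 lay in the dimmest 30% of genes, Epcam and Cdh1 among them. Others were brighter, such as Krt18 at 7.15 to 7.98 and Krt8 at 6.28 to 6.83. Levels of different probesets are not on a common scale, so these values are given per gene only.

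Of the 2 genes of the set with a named probeset, Il33, chosen for its fall at 100 pM, was the one whose level moved. Its log2 expression was 8.28, 8.08 and 8.16 on the vehicle arrays, 7.94, 8.08 and 8.00 on the 10 pM E2 arrays, and 7.10, 6.47 and 7.00 on the 100 pM E2 arrays. All 3 arrays at 100 pM lay below all 6 others, and the vehicle and 10 pM arrays overlapped. Replicate 2 at 100 pM was the lowest of the 9. The spread at 100 pM was also wider than in the other groups, with means of 8.17 ± 0.10 in vehicle, 8.01 ± 0.07 at 10 pM and 6.86 ± 0.34 at 100 pM (SD, n = 3 each).

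At 100 pM E2, Il33 was lower than in vehicle by a log2 difference of -1.32 ± 0.14 (SE, with a 95% interval of 0.32 to either side), which is 40.2% of the vehicle level. Against 10 pM E2 the difference at 100 pM was -1.15 ± 0.14 (95% interval -1.47 to -0.83), or 45% of the 10 pM level. These contrasts share the 100 pM arrays that the choice of the gene rested on. The single 100 pM arrays lay at -1.08, -1.70 and -1.17 from the vehicle mean. With replicate 2 left out, the difference from vehicle was -1.12 and that from 10 pM was -0.96. Over all genes, 0.687% were called lower and 0.446% higher at 100 pM than in vehicle, at an adjusted p below 0.05 in the limma fit, and 0.607% were called lower and 0.226% higher at 100 pM than at 10 pM. Groups that did not overlap, with 100 pM the lower, were seen for 5.89% of genes against vehicle and for 6.42% against 10 pM. Only 2 of the 19938 genes had a lower difference from vehicle than Il33. They were Egfl6, which encodes an EGF-like matrix protein, at -1.50, and Eln, which encodes elastin, at -1.34.

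The contrast of 10 pM E2 with vehicle was not itself used to choose the genes, and it was tested. It shares the vehicle arrays with the contrast behind that choice, so its p-values for Il33 are not independent of the choice. Il33 differed by -0.16 ± 0.14 (95% interval -0.48 to 0.15), or 89.2% of the vehicle level, which did not pass the test (limma, unadjusted p of 0.274 and adjusted p of 1). The width of that interval came from the wider spread at 100 pM, which the fit pools. With only the compared groups in the fit the difference was -0.16 ± 0.06 (95% interval of 0.15 to either side, unadjusted p of 0.037), and without 100 pM replicate 2 it was -0.16 ± 0.06 (0.14 to either side, unadjusted p of 0.029). The adjusted p over all genes lay between 0.957 and 1 under every alternative run. Of all genes, 0.0% were called in this contrast by limma and also by the unmoderated test, while 705 had an unadjusted p below 0.05 in limma and 540 in the unmoderated test. Groups of arrays did not overlap for 5.93% of genes, and Il33 was not among them. The order of the Il33 means was thus vehicle, 10 pM and 100 pM from high to low. The gap between vehicle and 10 pM did not pass the adjusted test, and their arrays overlapped.

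**Figure D1:**
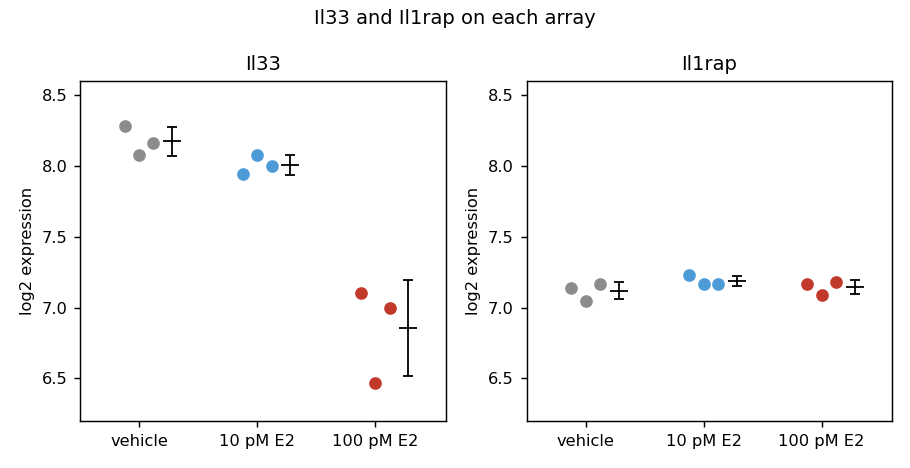
Log2 expression of Il33 (left) and Il1rap (right) on each array, by dose of E2, with DHT in every group. Points are arrays, and the bar beside them is the mean with the SD (n = 3). The 100 pM arrays of Il33 lie between 6.47 and 7.10, below every other array, while all 9 arrays of Il1rap lie between 7.05 and 7.23.

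Il1rap, the accessory chain shared by the IL-33 and IL-1 receptors, stayed within a narrow range. Its log2 expression was 7.14, 7.05 and 7.17 in vehicle, 7.23, 7.17 and 7.17 at 10 pM E2, and 7.17, 7.09 and 7.18 at 100 pM E2. The arrays of the groups overlapped in each comparison, and 3 of the 4 arrays printed as 7.17 held the same deposited value when compared to 5 decimals. The 10 pM arrays differed from vehicle by 0.07 ± 0.04 (SE, 95% interval -0.03 to 0.17), which did not pass the test (limma, unadjusted p of 0.143 and adjusted p of 1). At 100 pM the difference was 0.03 ± 0.04 from vehicle (95% interval -0.07 to 0.13) and -0.04 ± 0.04 from 10 pM (95% interval -0.14 to 0.06). Both intervals lie far inside the size of the Il33 difference, but they do not show that Il1rap was the same in all groups. Over the 9 arrays Il1rap and Il33 had a Pearson r of 0.14, and 63.2% of genes had a lower one. Without 100 pM replicate 2 the sign turned, to -0.25. With group means taken out r was 0.58, and 0.20 without that array.

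The other chains of the receptor family were read from 7 genes, and none was called in any contrast. Their median log2 difference was 0.02 at 10 pM and -0.01 at 100 pM against vehicle, beside a median of 0.00 over all genes in both. Il1rl2, which encodes the IL-36 receptor and lies on chromosome 1 with Il1rl1 and Il1r1, had the smallest p. It stood at 8.09, 8.10 and 8.14 in vehicle, 8.09, 8.15 and 8.14 at 10 pM, and 7.92, 7.94 and 8.06 at 100 pM. The 100 pM arrays lay below all others, by -0.13 ± 0.04 from vehicle, and the adjusted p was 0.282 (limma, unadjusted p = 0.0143). Il1r2, the decoy receptor that binds IL-1 without signaling, differed at 100 pM by 0.15 ± 0.10, and Sigirr, an inhibitory member of the family, by -0.01 ± 0.03 (adjusted p = 0.65 and 0.953). Il18r1, the binding chain of the IL-18 receptor, had the smallest p at 10 pM, with 0.14 ± 0.09 (unadjusted p of 0.145, adjusted p of 1). Of these 7 genes, 5 lay in the dimmest 30% of genes.

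Among the ligands and natural antagonists of the family, 10 genes were measured beside Il33 and none was called in any contrast. The medians were 0.05 at 10 pM and 0.05 at 100 pM against vehicle. Il1a and Il1b, the classical agonists of the IL-1 receptor, differed at 100 pM by -0.11 ± 0.11 and -0.01 ± 0.06, and both were dim. Il1rn, the receptor antagonist, stood at 6.31, 6.38 and 6.23 in vehicle, 6.47, 6.39 and 6.47 at 10 pM, and 6.35, 6.38 and 6.33 at 100 pM. The 10 pM arrays were the highest, by 0.14 ± 0.05 over vehicle, with an unadjusted p of 0.0163 and an adjusted p of 1 in limma. Il36g, an IL-36 agonist listed under its older symbol Il1f9, had the smallest p at 100 pM, with 0.14 ± 0.07 (adjusted p = 0.558). Of the 10 genes, 8 lay in the dimmest 30%.

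Signaling from the receptors to the kinase TAK1 was read from 15 genes, of which none was called in any contrast and none was dim by that measure. Medians were 0.01 at both doses against vehicle. At 100 pM, 10 of the 15 had a higher mean than in vehicle, beside 10561 of all 19938 genes. The arrays of 4 of the 15 did not overlap vehicle at 100 pM, beside 2492 of all genes. Myd88, the adaptor of both receptors, stood at 8.53, 8.62 and 8.52 in vehicle, 8.56, 8.65 and 8.53 at 10 pM, and 8.42, 8.48 and 8.34 at 100 pM. All 3 arrays at 100 pM lay below the other 6. The difference of -0.14 ± 0.05 from vehicle had an unadjusted p of 0.0216 and an adjusted p of 0.336, and that of -0.16 ± 0.05 from 10 pM had an adjusted p of 0.287. Irak3, a kinase-dead family member known to restrain the pathway, had the lowest difference of the list, at -0.19 ± 0.07 (adjusted p = 0.369). Traf6, the ubiquitin ligase downstream of the IRAK kinases, differed by -0.07 ± 0.05 at 100 pM. Tab3, a partner of TAK1, had the smallest p at 10 pM, with 0.11 ± 0.06 (unadjusted p of 0.0915, adjusted p of 1). At 100 pM Tab3 stood 0.13 ± 0.06 above vehicle (limma, adjusted p = 0.478). Map3k7, the gene of TAK1, stood 0.10 ± 0.04 above vehicle at 100 pM (limma, adjusted p = 0.364). For both genes the 100 pM arrays lay above all vehicle arrays. Irak4 and Chuk had no named probeset and were not analysed here.

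**Figure D2:**
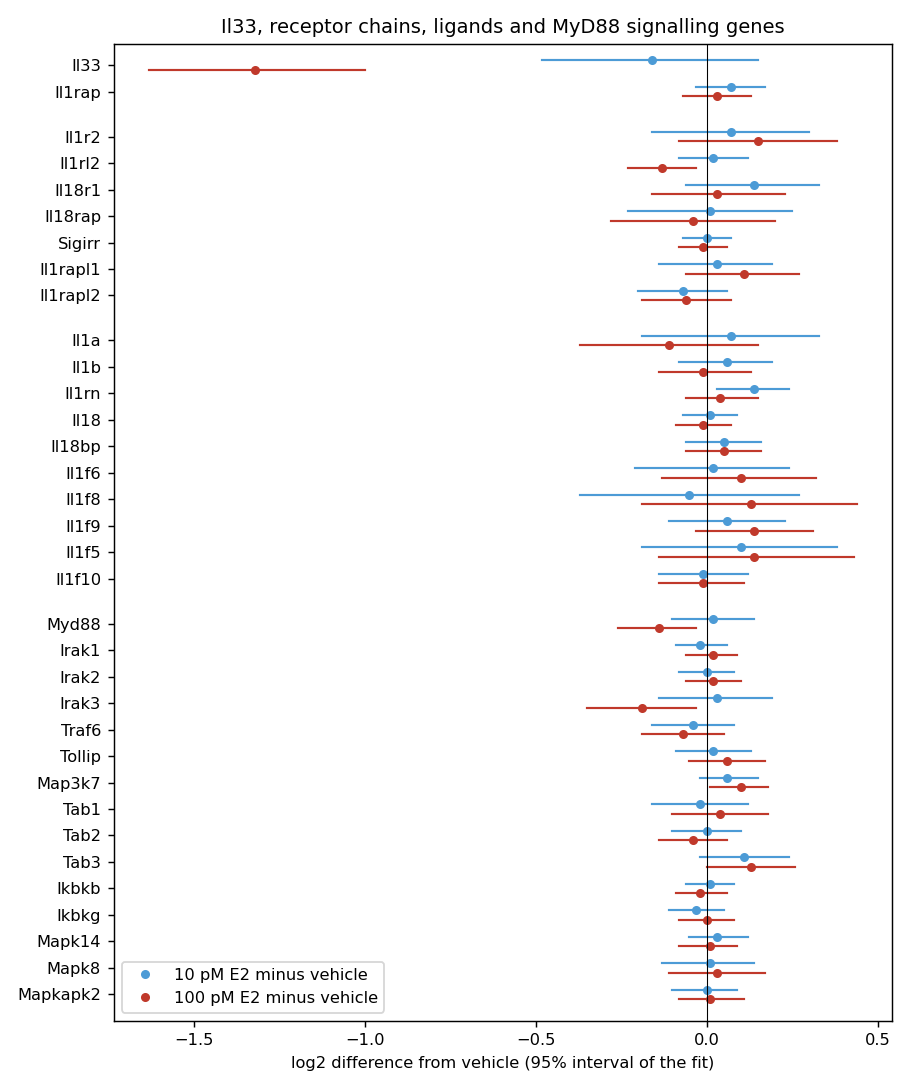
Log2 difference from vehicle at 10 pM E2 and at 100 pM E2 for Il33 and Il1rap, the other receptor chains, the ligands and antagonists, and the genes from MyD88 to TAK1, in blocks from top to bottom. Points are the differences and lines their 95% intervals in the limma fit. Il33 at 100 pM, at -1.32, stands apart from every other gene shown, and none of the genes below Il1rap was called.

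The NF-kB subunits and their feedback inhibitors were read from 12 genes. All 12 had a higher mean at 10 pM than in vehicle, with a median of 0.10, and none was called, beside 10660 of all 19938 genes with a higher mean. At 100 pM the list's median difference from vehicle was -0.01, and none was called. Between the doses, 11 of 12 were lower at 100 pM than at 10 pM, with a median of -0.07, beside 9857 of all genes with a lower mean. Of the 12, 1 was called lower, beside 0.607% of all genes. Nfkbia, which encodes the inhibitor IkBa and is itself an NF-kB target, stood at 7.95, 8.04 and 8.11 in vehicle, 8.29, 8.26 and 8.31 at 10 pM, and 7.96, 7.90 and 8.07 at 100 pM. The 10 pM arrays lay above all others, and the vehicle and 100 pM arrays overlapped. Nfkbia fell by 0.31 ± 0.05 on the log2 scale at 100 pM against 10 pM (limma, adjusted p = 0.039). At 10 pM it stood 0.25 ± 0.05 above vehicle, with an unadjusted p of 0.00119 and an adjusted p of 1. The call was lost without any one of vehicle replicates 1 and 2, 10 pM replicates 1 to 3 and 100 pM replicates 1 and 2, with an adjusted p of up to 0.167 over all alternatives. Rela, the main activating subunit, differed by 0.03 ± 0.06 at each dose from vehicle, and Nfkbiz, an NF-kB cofactor, had the smallest p at 100 pM, with 0.10 ± 0.05 (adjusted p = 0.52). Nfkb1 had no named probeset and was not analysed here.

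Of 16 genes that IL-1 family receptors are known to induce in stromal cells, 0 were called against vehicle at either dose and 2 were called lower at 100 pM than at 10 pM, Ccl2 and Saa3. Of all genes, 0.607% were called lower between the doses. The list was chosen with earlier results of these data known, so the 2 shares are set side by side as a description only. The medians of the 16 were 0.11 at 10 pM and -0.01 at 100 pM against vehicle, and -0.09 between the doses. Saa3, an acute-phase serum amyloid A gene, stood at 5.33, 5.13 and 4.96 in vehicle, 6.76, 6.31 and 6.24 at 10 pM, and 5.27, 5.01 and 5.16 at 100 pM. The 10 pM arrays were far above the rest, and vehicle and 100 pM overlapped. At 10 pM Saa3 stood 1.29 ± 0.14 above vehicle, the highest difference of all 19938 genes in that contrast, with an adjusted p of 0.16. At 100 pM it fell by 1.29 ± 0.14 against 10 pM (limma, adjusted p = 0.00764), and it differed from vehicle by 0.01 ± 0.14.

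Ccl2, a chemokine that draws monocytes, stood at 6.85, 6.89 and 6.82 in vehicle, 7.15, 7.21 and 7.34 at 10 pM, and 6.37, 6.58 and 6.77 at 100 pM. No group overlapped another. The 10 pM arrays were the highest and the 100 pM arrays the lowest. Ccl2 fell by 0.66 ± 0.09 at 100 pM against 10 pM (limma, adjusted p = 0.0146). The differences from vehicle did not pass the test, at -0.28 ± 0.09 for 100 pM (adjusted p = 0.278) and 0.38 ± 0.09 for 10 pM (adjusted p = 1). The call was lost without any one of 10 pM replicates 1 to 3 or without 100 pM replicate 2, with an adjusted p of up to 0.134 over all alternatives. Ccl7, a close relative of Ccl2, differed by -0.38 ± 0.09 between 100 pM and 10 pM (adjusted p = 0.142). Mmp3, a matrix metalloproteinase, was the gene of the list with the smallest p at 100 pM against vehicle, with 0.24 ± 0.06 (adjusted p = 0.109). Ptgs2 had the highest difference of the list there, 0.26 ± 0.07 (limma, adjusted p = 0.174), and Vcam1 differed by 0.12 ± 0.04 (adjusted p = 0.347). Of the 16 genes, 8 had a higher and 8 a lower mean at 100 pM than in vehicle. Il6 differed at 100 pM by 0.09 ± 0.06 and Cxcl1 by -0.06 ± 0.10 from vehicle, and neither passed the test.

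**Figure D3:**
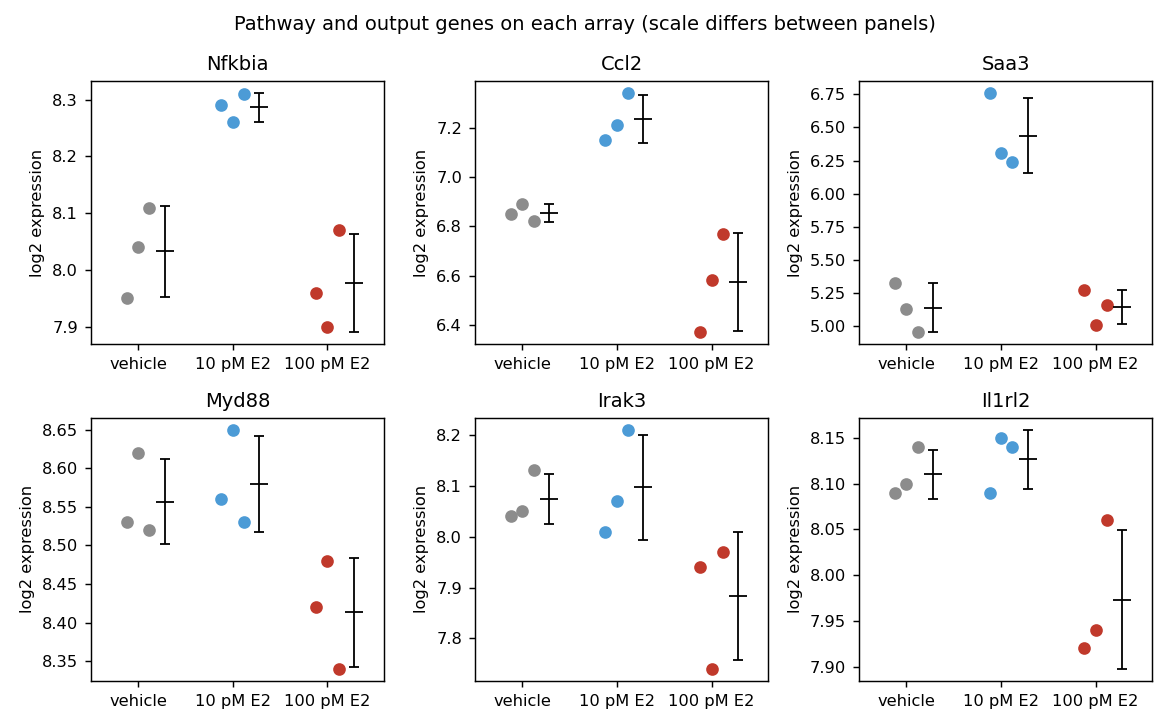
Log2 expression of Nfkbia, Ccl2 and Saa3 (top row) and of Myd88, Irak3 and Il1rl2 (bottom row) on each array, by dose of E2. Points are arrays, the bar beside them is the mean with the SD (n = 3), and each panel has its own scale. Saa3 lies at 6.24 to 6.76 at 10 pM E2 and at or below 5.33 elsewhere. The genes of the bottom row are lowest at 100 pM. Of the 15 genes from MyD88 to TAK1, 10 had a higher mean at 100 pM than in vehicle.

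Genes around IL-33 biology outside the receptor pathway did not pass the test. None of 8 other alarmin genes was called in any contrast. Anxa1, a phospholipid-binding protein with anti-inflammatory actions, had the smallest p among them at 100 pM, with 0.14 ± 0.05 over vehicle (adjusted p = 0.322), and Hmgb2, a chromatin protein, had the smallest at 10 pM, with 0.11 ± 0.07 (unadjusted p of 0.165, adjusted p of 1). None of 11 type 2 cytokine and receptor genes was called. Il13ra1, a chain of the IL-13 receptor, was lowest at 100 pM, by -0.21 ± 0.05 from vehicle (adjusted p = 0.122) and -0.25 ± 0.05 from 10 pM (adjusted p = 0.0696). Il4ra, its partner chain, stood 0.16 ± 0.06 above vehicle at 10 pM (unadjusted p of 0.0158, adjusted p of 1) and 0.19 ± 0.06 above it at 100 pM (adjusted p = 0.193), where all 3 arrays lay above vehicle. None of 11 protease genes whose products can cleave IL-33 was called. Capn2, the catalytic subunit of a calpain, stood 0.15 ± 0.04 above vehicle at 100 pM (adjusted p = 0.135), and Ctsg, a neutrophil protease, differed by 0.17 ± 0.11 at 10 pM (unadjusted p of 0.171, adjusted p of 1).

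Over all 90 measured genes of these lists, each counted once, 0 were called at 10 pM, 0 at 100 pM against vehicle and 3 at 100 pM against 10 pM, all lower. Of all genes, 0.0% were called at 10 pM against vehicle. At 100 pM, 0.687% were called lower and 0.446% higher against vehicle, and 0.607% lower and 0.226% higher against 10 pM. Among the 90, unadjusted p-values below 0.05 numbered 9, 12 and 13 in limma, and 10, 11 and 13 in the unmoderated test. In limma these are 10%, 13.3% and 14.4% of the 90, beside 3.54%, 10.9% and 10.2% of all genes. The medians were 0.03, 0.02 and -0.02, beside 0.00 over all genes in each contrast, and 33 of the 90 lay in the dimmest 30%. In fits of only the compared groups, which leave fewer arrays to estimate the spread, none of the 3 was called, and Saa3 had an adjusted p of 0.0714. The pairwise contrasts share arrays, so their counts are not independent of each other. The lists were chosen with earlier results of these data known, so their shares beside those of all genes are a description only.

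The genes most like Il33 over the 9 arrays were taken by Pearson r among 19926 genes with a defined value. These values are a description, because the arrays share their groups and r follows the gap between 100 pM and the rest. Sulf1, a heparan sulfate sulfatase, Clip4, a microtubule-associated protein, Itgbl1, an integrin beta-like protein, Adh1, an alcohol dehydrogenase that can oxidize retinol, and Col14a1, a fibril-associated collagen, all had an r of 0.99. At 100 pM their differences from vehicle were -0.72 for Sulf1, -0.64 for Clip4, -0.52 for Itgbl1, -0.89 for Adh1 and -0.58 for Col14a1. All 5 were lowest on replicate 2 at 100 pM, as Il33 was. With group means taken out, r was 0.92, 0.91, 0.95, 0.96 and 0.97 in the same order, and without that array it was 0.30, 0.64, 0.71, 0.85 and 0.78.

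The opposite pattern was held by Tll1, a tolloid-like metalloproteinase, with an r of -0.99, and by Otud6b, a deubiquitinase, Perp, a desmosome-associated protein, Gsto1, a glutathione transferase, and Pappa, a protease of IGF-binding proteins, each with -0.98. Their differences at 100 pM were 0.65, 0.18, 0.63, 0.50 and 0.42 in that order. All 5 were highest on replicate 2 at 100 pM. With group means taken out r was -0.85 for Tll1, -0.84 for Otud6b, -0.88 for Perp, -0.77 for Gsto1 and -0.63 for Pappa, and without that array it was -0.08, -0.65, -0.31, 0.70 and -0.75. The within-group likeness of Sulf1, Tll1, Perp and Gsto1 therefore rested on 1 array. In all, 244 genes had an r of at least 0.90 with Il33 and 143 an r of -0.90 or below.

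**Figure D4:**
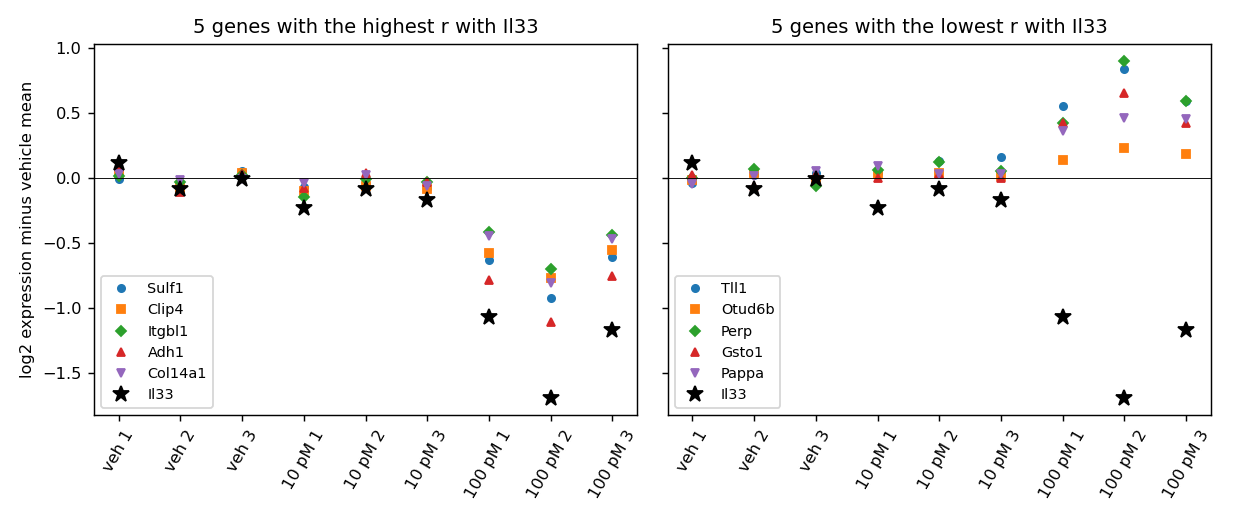
Log2 expression minus the vehicle mean on each of the 9 arrays (veh, vehicle), for Il33 (stars) and the 5 genes with the highest (left) and lowest (right) Pearson r with it. Replicate 2 at 100 pM E2 is the lowest array of Il33 and of all 5 genes on the left, and the highest array of all 5 genes on the right.

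Markers of other cell types moved with the dose in part. In whole cultures, fewer cells of a type and less RNA per cell cannot be told apart. The mean log2 level of 12 macrophage markers was 5.61 to 5.65 at 100 pM, against 5.79 to 5.90 in vehicle. All 12 had a lower mean at 100 pM, beside 9363 of all 19938 genes. Their median difference was -0.12, and the smallest was -0.02, for Tyrobp. C1qb, a complement gene of macrophages, fell by 0.51 ± 0.09 (limma, adjusted p = 0.0433). That call was lost without any one of vehicle replicates 2 and 3, 10 pM replicates 1 to 3 and 100 pM replicates 2 and 3, with an adjusted p of up to 0.216 over all alternatives. Lyz2, the lysozyme gene of macrophages, had the lowest difference of the list at -0.88 ± 0.23 (adjusted p = 0.155).

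The mesenchyme list, of 12 genes, stood at 11.63 to 11.70 at 100 pM, against 11.76 on every vehicle array, and replicate 2 was the lowest. Of its members, 7 had a lower and 5 a higher mean at 100 pM, with a median difference of -0.01. Pdgfra, which encodes a PDGF receptor of fibroblasts, fell by 0.45 ± 0.04 (limma, adjusted p = 0.00359). Of the matrix genes, Lum (lumican) fell by 0.41 ± 0.07 (adjusted p = 0.0384), Dcn (decorin) fell by 0.25 ± 0.05 (adjusted p = 0.0421) and Col3a1 (collagen III) fell by 0.18 ± 0.03 (adjusted p = 0.0469). The call of Col3a1 was lost without any 1 of the 9 arrays, and those of Lum and Dcn were each lost without any one of 8 of them, with adjusted p-values of up to 0.162, 0.179 and 0.188 over all alternatives. Other members differed the other way without passing the test. Vim, an intermediate filament gene, stood 0.13 ± 0.04 above vehicle at 100 pM (adjusted p = 0.282), Fn1, the fibronectin gene, 0.04 ± 0.03 (adjusted p = 0.698) and Acta2, a smooth muscle actin gene, 0.03 ± 0.03 (adjusted p = 0.747), with no overlap of the arrays in each. For Acta2 the closest arrays of the 2 groups both round to 13.38. Over all genes, 2492 of 19938 did not overlap in this contrast, counting both directions. The 8 endothelial markers, a cell type that can hold IL-33, stood at 6.08 at 100 pM, against 6.09 to 6.16 in vehicle. Kdr, a VEGF receptor, fell by 0.98 ± 0.10 (adjusted p = 0.00359) and Emcn, an endothelial sialomucin, rose by 0.82 ± 0.09 (adjusted p = 0.00399), while Pecam1 differed by 0.02 ± 0.08. The 10 epithelial markers stood at 5.87 to 6.00 at 100 pM, against 5.81 to 5.91 in vehicle, with none called. Krt18, a keratin of simple epithelia, rose by 0.57 ± 0.10 at 100 pM against 10 pM (limma, adjusted p = 0.0428), a call lost without any one of 8 arrays. The 9 mast cell markers and the 9 lymphoid markers, which cover the best known ST2-bearing cells, stood at 4.96 to 5.04 and 5.28 to 5.34 at 100 pM, against 4.97 to 5.01 and 5.31 to 5.32 in vehicle, with none called. In fits of only the compared groups none of these marker calls held. The part of any of these cell types in the Il33 difference was not tested.

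**Figure D5:**
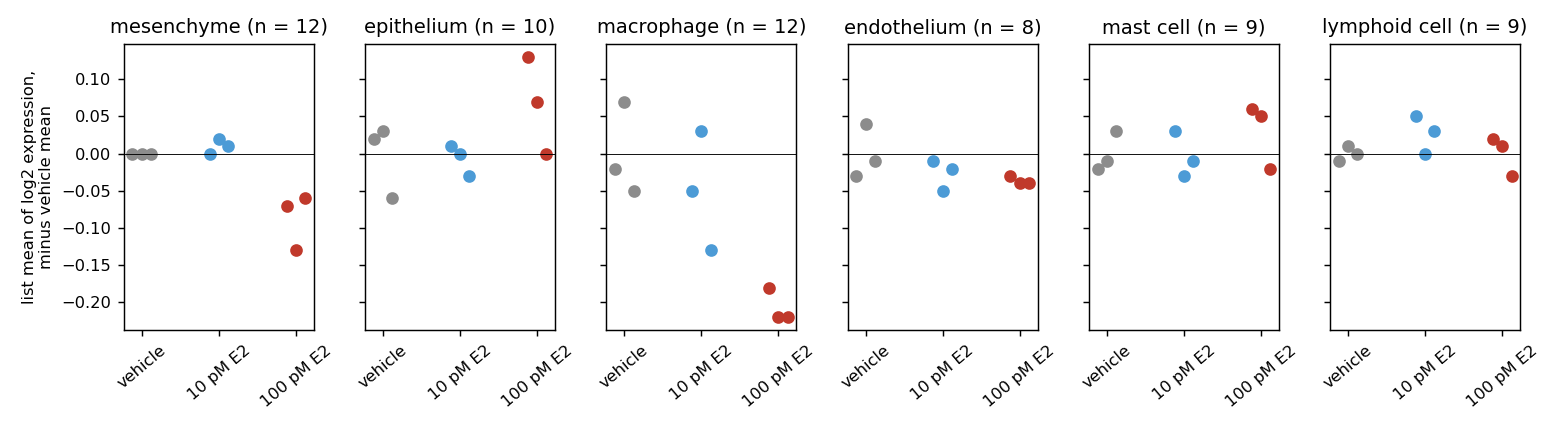
Mean log2 expression of each marker list on each array, minus its vehicle mean, by dose of E2, with the number of genes in each list. Points are arrays. The macrophage and mesenchyme lists are lowest at 100 pM E2, at 5.61 to 5.65 and 11.63 to 11.70, and the epithelial, mast cell and lymphoid lists overlap vehicle.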

How the data were processed

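Each value analysed is the deposited log2 expression of 1 probeset on 1 array, made by the authors with GCOS and the Gene Expression Console. Their version and the summarization and normalization are not given in the sources used here. That the scale is log2 follows from the range of the values, and genes were not centred. In 14490 of 19938 genes, 2 or more arrays held a value equal in every deposited digit. No scan date was used.

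Of 35556 probesets, 21789 had 1 symbol in the platform annotation given, 1621 had several symbols and were left out, and 12146 have no name here. A match in the mouse gene table given was found for 21698. For the 999 genes with over 1 probeset, the one with the highest mean over 9 arrays was used. Groups and replicate numbers came from the sample titles.

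All 9 arrays were fitted with 1 mean per group in limma 3.58.1 (R 4.3.3, lmFit and eBayes), after testing the script on simulated data. Tests were two-sided, with Benjamini-Hochberg adjustment over 19938 genes, and genes were called at an adjusted p below 0.05. Errors of differences are standard errors of the fit. The study's own test was an unadjusted analysis of variance, and the study states that its effects were lost after Benjamini-Hochberg correction. An unmoderated version of the pairwise contrasts was therefore run as an alternative.

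The genes and lists were chosen with earlier results of these data known. Named from each list were the called genes, the gene with the smallest p where none was called, fixed pathway genes, and the 5 genes at each end of Pearson r with Il33. Irak3, Map3k7, Ccl7, Ptgs2, Vcam1, Lyz2, Egfl6 and Eln were named after their values were seen. Alternatives were the normalization, filters, the probeset rule, the fit, a replicate block and leaving out each array. Correlations with and without replicate 2 at 100 pM were added after seeing the data. Promoter windows are from RefSeq (GRCm38.p6). Figures were drawn with matplotlib 3.10.9.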

Additional observations from a re-analysis of the deposited data

How the results depend on the processing

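All 114 values of Il33 and Il1rap under the 19 alternatives kept their side of the test or moved by less than 1 SD between replicates. This is a weak check at 10 pM against vehicle, where hardly any gene was called under any alternative. The SD of Il33 also includes its wider spread at 100 pM. Il1rap at 100 pM against vehicle ran from -0.01 to 0.05 with 1 array left out, so its sign did not hold. Leaving out 1 array gave -1.43 to -1.12 for Il33 at 100 pM against vehicle, -1.27 to -0.96 against 10 pM, and -0.21 to -0.11 at 10 pM against vehicle. The count of 0 pathway genes called at 10 pM against vehicle became 1 (Saa3) with the replicate block, and the 0 at 100 pM against vehicle became 1 (Capn2) with a trended and robust prior. The 3 genes called at 100 pM against 10 pM became 1 with all probesets tested, 5 with the trended and robust prior, 0 with only the compared groups in the fit and 0 with the unmoderated test. Leaving out 1 array gave 1 to 4, and 1 without any 10 pM array or without 100 pM replicate 2. Only Saa3 was called in every leave-one-out fit.
Over all genes, the 226 calls at 100 pM against vehicle became 343 without the dimmest 30% of genes, 119 with all probesets tested, 349 with the trended and robust prior, 10 with only the compared groups and 30 with the unmoderated test, and 88 to 259 with 1 array left out (88 without vehicle replicate 1). The 166 calls at 100 pM against 10 pM became 291, 30, 284, 1 and 1 in the same order, and 30 to 178 with 1 array left out (30 without 10 pM replicate 1). The cause of these shifts was not tested.

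Deviations of same-numbered arrays from their group means correlated at -0.112 to 0.2, beside -0.189 to 0.168 for arrays of different number and group. With 3 arrays per group, these values cannot show whether the replicate numbers paired the arrays. With the replicate block, Il33 kept -1.32 at 100 pM and -0.16 at 10 pM against vehicle, Saa3 was the 1 gene called at 10 pM, and 168 genes were called at 100 pM against vehicle and 133 against 10 pM. The block gave Saa3 an adjusted p of 0.016 at 10 pM, and ended the calls of C1qb, Col3a1 and Dcn at 100 pM against vehicle.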

Other observations

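The measured genes next to Il33 on chromosome 19, 3 on either side, differed at 100 pM against vehicle by -0.06 to 0.10 on the log2 scale, and none was called in any contrast. Of the 6 neighbours of Il1rap on chromosome 16, 1 was called, lower at 100 pM than in vehicle, beside 0.687% of all genes. Ostn, which encodes the secreted peptide osteocrin, stood at 5.41, 5.49 and 5.63 at 100 pM E2, against 5.97, 6.12 and 6.16 in vehicle. It fell by 0.57 ± 0.08 (limma, adjusted p = 0.0132), and the call was lost without vehicle replicate 2, vehicle replicate 3 or 100 pM replicate 2, with an adjusted p of up to 0.115 over all alternatives.

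Ranked by Spearman's rho over the 9 arrays instead of Pearson's r, the genes most like Il33 were Zfp354c, Plcb1, Pgm5, Svil and Heg1, each at 0.98, and the least like was Impact, at -0.98. None of them was among the 5 at either end by r, while all 5 genes with the highest r and 4 of the 5 with the lowest were in the extreme 5% by rho.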
